A study of Mus musculus with 27 samples.

Results

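The comparison is that of ischemic with opposite cortex 24 h after a transient stroke in mice, read across all 1842 mature miRNA entries of 1 count table. Its members were chosen by label: the 3 ipsilateral and the 3 contralateral libraries of 24 h, of 27 libraries in all, set against each other by replicate number. All animals were wild-type C57BL6 mice aged 7 to 8 weeks. In middle cerebral artery occlusion (MCAO), a suture advanced through the right external carotid artery blocked the middle cerebral artery for 35 min, with the common carotid tied off, and was then withdrawn so that blood flowed again. Cortex of the occluded (ipsilateral) side and of the opposite (contralateral) side was dissected after 24 h of recovery. Contralateral cortex therefore comes from animals that had the occlusion too, and sham libraries (3, anesthesia and exposed arteries without a filament) are given only as a level to read beside it. The 3 replicate numbers mark 3 separate days of surgery, and each is called a day below. Whether the 2 libraries of a day come from the same animal, and how many animals were pooled, is not stated by the labels.

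miRNAs are short RNAs cut from hairpin precursors. Each hairpin can give a 5p and a 3p arm, of which 1 is usually kept, loaded into an Argonaute protein and guided to messenger RNAs mainly through its seed, bases 2 to 8. miRNAs with the same seed form a family with largely shared targets. Cortex is known for high levels of the let-7, miR-30 and miR-181 families, of the neuronal miR-124, miR-128 and miR-9, and of miRNAs from the imprinted Dlk1-Dio3 region. Numbers in miRNA names follow the order of registration, so high numbers belong to entries described late, many of them at low level.

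The sequences shown first are a selection of entries that rose in ischemic cortex, with the seed in capitals. They are not the full set of the largest rises, and miR-18a-5p and miR-18b-5p are shown as a pair with a common seed. Sequences and positions are from RefSeq (GRCm38.p6), which held 1587 of the 1842 entries and 1290 of the 1470 tested. Gene context is from the GENCODE M21 annotation of GRCm38.

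miR-701-5p: uUAGCCGCugaaauagaugga
miR-6968-5p: aGGGGGCGagggggcccugugg
miR-7687-3p: cCACUCAGucgccccgccaca
miR-718: cUUCCGCCcggccgggugucg
miR-6240: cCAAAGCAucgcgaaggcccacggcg
miR-2861: gGGGCCUGgcggcgggcgg
miR-494-3p: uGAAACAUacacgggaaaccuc
miR-18a-5p: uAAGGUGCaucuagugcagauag
miR-18b-5p: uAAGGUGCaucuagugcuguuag

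miR-701-5p lies at chr5:111004170-111004190 on the plus strand, in an intron of Ttc28. miR-6968-5p lies at chr17:26935472-26935493, plus strand, in an intron of Phf1, and miR-7687-3p at chr8:120538734-120538754, plus strand, in an intron shared by Gse1 and Gm20388. miR-718 lies at chrX:74023857-74023877, minus strand, within an exon of Irak1. miR-2861 lies at chr2:32712819-32712837, minus strand, within an exon of Cdk9. No annotated gene holds miR-6240 (chr5:114851973-114851998, plus strand) or miR-494-3p (chr12:109715367-109715388, plus strand). Genes of small RNAs were left out here, and ribosomal RNA repeats outside the annotation were not searched. Whether reads of miR-6240 come from such RNA was not tested. Among the sequences shown, a seed is shared by the pair miR-18a-5p and miR-18b-5p alone.

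The second set shows entries that fell, most of them from families whose members share a seed and nearly the whole sequence. Of the 88 lower entries with a known sequence, 28 shared their seed with another lower entry.

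let-7f-5p: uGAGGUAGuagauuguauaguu
let-7d-5p: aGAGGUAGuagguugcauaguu
let-7e-5p: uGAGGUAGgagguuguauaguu
let-7a-5p: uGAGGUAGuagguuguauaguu
miR-30a-5p: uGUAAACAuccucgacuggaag
miR-30e-5p: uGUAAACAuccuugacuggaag
miR-30c-5p: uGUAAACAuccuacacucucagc
miR-181a-5p: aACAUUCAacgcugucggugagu
miR-181c-5p: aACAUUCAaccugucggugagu
miR-222-3p: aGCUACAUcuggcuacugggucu

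let-7f-5p (chr13:48537889-48537910, minus strand, with another copy elsewhere) and let-7d-5p (chr13:48536078-48536099, minus strand) lie in exons of the same non-coding host, 6720427I07Rik. miR-30e-5p (chr4:120772660-120772681, minus strand) lies in an intron of Nfyc. miR-222-3p (chrX:19146901-19146923, minus strand) lies in no annotated gene. The labels do not say how reads that match several family members were counted, and values of single let-7, miR-30 and miR-181 members are uncertain for that reason.

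Total counts were 1144733, 1435081 and 866376 in contralateral replicates 1 to 3 and 1022199, 1223580 and 1039899 in ipsilateral replicates 1 to 3, within the range of 856591 to 1903416 over the series. Levels below are CPM, read counts relative to the TMM-scaled library size, a scaling that centres the typical entry; 1 CPM is thus about 1 read. The TMM factors were 1.44, 1.18 and 1.25 in the ipsilateral libraries and 0.928, 0.829 and 0.990 in the contralateral ones, so the 2 sides differ in scaling. With library totals alone as the scale, the median log2 fold change of the 1470 tested entries moved from 0.08 to 0.57. All log2 values are ipsilateral over contralateral and are to be read against that median. In tissue libraries, fewer cells of a type and less of a miRNA per cell cannot be told apart.

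At 24 h the ischemic cortex carried more of 198 entries and less of 96. Of 1470 tested, 13.5% were called higher and 6.53% lower (edgeR quasi-likelihood F test with surgery day as a block, Benjamini-Hochberg adjusted p under 0.05). The 2 sets differed in level and size. The entries that rose were mostly at low level, as are most of the tested entries, and rose many-fold: their median level was 10.5 CPM in contralateral and 72.6 CPM in ipsilateral cortex, their median log2 fold change was 2.54 (0.72 to 8.33), and 127 exceeded 2 on the log2 scale. Entries that fell were abundant ones that fell modestly: their median level was 1098 CPM in contralateral and 687 CPM in ipsilateral cortex, with a median log2 fold change of -0.72 (-1.07 to -0.49). Among the 302 entries with a mean of at least 100 CPM, 55 rose (18.2%) and 87 fell (28.8%), against 143 (12.2%) and 9 (0.771%) of the 1168 below that level.

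**Figure D1:**
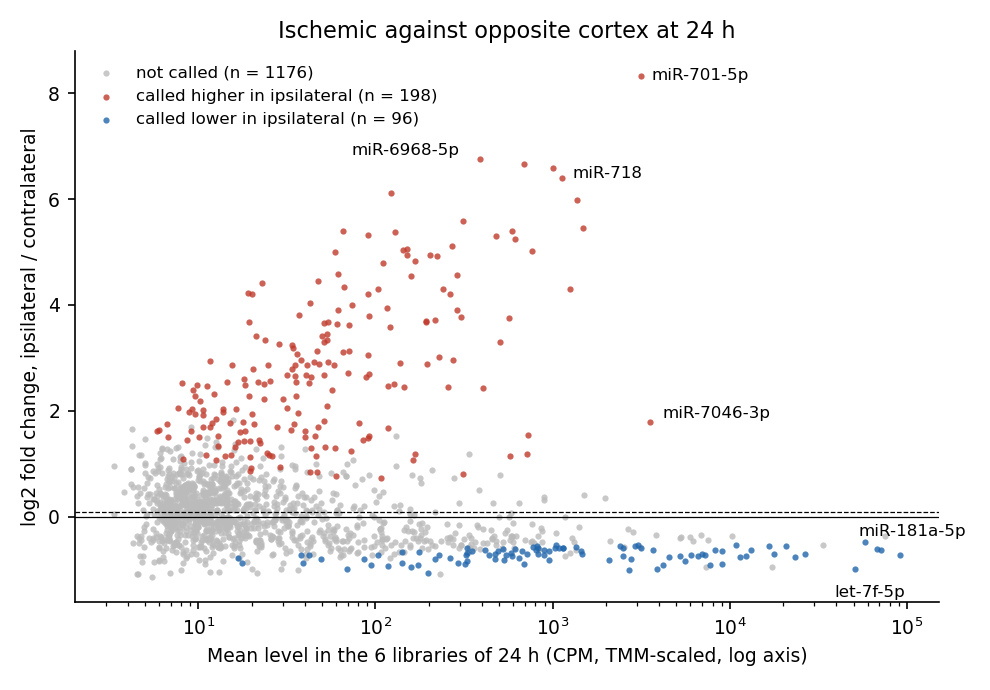
The plot has 1 point per tested entry, with its mean level in the 6 libraries of 24 h in CPM on a log axis against its log2 fold change, ipsilateral over contralateral; the dashed line is the median of all tested entries, 0.08. The 198 entries called higher (red) rise as far as 8.33 and lie mostly at low levels, and the 96 called lower (blue) lie between -1.07 and -0.49 and mostly at high levels.

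Both counts moved with the analysis. Without the surgery-day block 174 entries were higher and 21 lower. With total counts as the scale 350 were higher and 4 lower, and with TMM factors from entries of at least 100 CPM 289 and 24. Both scalings move all entries upward together, so that higher calls are kept and lower ones lost by construction. All 96 entries called lower kept a negative log2 value under total counts, from -0.58 to zero. With RLE factors 182 of the 198 and 96 of the 96 were still called, with DESeq2 173 and 95, with the stricter filter 165 and 96, and with the block within time 173 and 89. Leaving out a library of day 1 cost many calls: without ipsilateral replicate 1 the counts were 117 higher and 29 lower, without contralateral replicate 1 they were 136 and 26, and without ipsilateral replicate 2 they were 174 and 41. Under all 15 alternatives and single-library omissions, 105 entries stayed higher and 3 stayed lower.

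The order of the days was shared by many entries that rose. Ipsilateral replicate 1 was the highest of the 3 ipsilateral libraries for 195 of the 198 entries, and replicate 3 the lowest for 169, with replicates 1, 2 and 3 in falling order for 167. Over all 1470 tested entries replicate 1 was the highest for 756 and that order held for 454. The median log2 ratio of the 198 entries was 3.20 on day 1, 2.23 on day 2 and 1.27 on day 3, computed with 1 CPM added. Of the entries that fell, 80 of 96 were lowest in ipsilateral replicate 1, and their median log2 ratios were -0.99, -0.69 and -0.43 on the 3 days. The direction was the same on all 3 days for 191 of the 198 and for 96 of the 96. The calls were made on these same libraries, so such agreement is partly given by the choice. Of all 1470 tested entries, 351 were higher in ipsilateral cortex on every day and 312 on none. The ipsilateral and contralateral levels did not overlap for 174 of the higher and 85 of the lower entries; over all tested entries such a gap was seen upward in 16.3% and downward in 12.0%.

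These shifts changed the make-up of the libraries. The 198 higher entries took 0.607%, 0.524% and 0.624% of the counts in contralateral replicates 1 to 3 and 15.2%, 5.10% and 2.73% in ipsilateral replicates 1 to 3. Sham libraries, which the call did not use as a contrast, gave 0.726%, 0.577% and 0.636%. The 96 lower entries took 72.8%, 69.9% and 71.1% of contralateral and 56.1%, 64.3% and 65.5% of ipsilateral counts. The 95% Wilson interval of the first ipsilateral share of the higher entries is 15.1% to 15.3%, and such intervals cover counting error only, as the reads carry no molecular identifiers. The spread between days was thus far wider than counting error.

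miR-701-5p had the highest fold change. Its level was 21.7, 13.5 and 30.4 CPM in contralateral replicates 1 to 3 and 12613, 4285 and 1883 CPM in ipsilateral replicates 1 to 3, with a mean of 18.1 CPM in sham. Each ipsilateral library stood far above every contralateral one, by 582, 318 and 62.0 times on the 3 days. The fitted log2 fold change was 8.33 ± 0.96 (SE; edgeR adjusted p = 7.96e-05). In reads this was a step from 23, 16 and 26 counts to 18461, 6168 and 2437 counts.

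Other entries followed the same profile over days at lower levels. miR-6968-5p, from an intron of the chromatin gene Phf1, had 10.4, 4.21 and 8.18 CPM in contralateral and 1312, 680 and 326 CPM in ipsilateral replicates (log2 fold change 6.76 ± 0.80, edgeR adjusted p = 7.96e-05). miR-7687-3p had 8.49, 10.9 and 18.7 CPM in contralateral and 2985, 691 and 431 CPM in ipsilateral replicates (6.66 ± 1.02). miR-718, from an exon of the interleukin receptor kinase gene Irak1, had 24.5, 27.8 and 37.4 CPM in contralateral and 3959, 2202 and 562 CPM in ipsilateral replicates (6.4 ± 0.88). In each of the 3 the sides were wide apart on every day, and ipsilateral replicate 1 was the highest.

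miR-2861 and miR-3960, both described as one cluster on mouse chromosome 2 with a role in bone cells, rose side by side. miR-2861 had 15.1, 11.8 and 12.9 CPM in contralateral and 1016, 498.8 and 311 CPM in ipsilateral replicates, a log2 fold change of 5.59 ± 0.80. miR-3960 had 59.4, 49.7 and 98.1 CPM in contralateral and 5799, 2043 and 877 CPM in ipsilateral replicates, a log2 fold change of 5.45 ± 0.72. miR-6240 had 37.7, 35.4 and 81.8 CPM in contralateral and 4545, 1977 and 1606 CPM in ipsilateral replicates (5.98 ± 0.84). For all 3 the contralateral levels lay near the sham means of 13.2, 70.4 and 61.4 CPM.

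The 15 highest fold changes among entries of at least 10 CPM also included miR-1893 (6.59), miR-3109-5p (6.12, from an intron of the annexin gene Anxa2), miR-1934-5p (5.40), miR-1892 (5.39), miR-8109 (5.38), miR-7034-3p (5.33), miR-5131 (5.31) and miR-6538 (5.24). Contralateral means of these 8 ran from 2.80 CPM for miR-1892 to 32.6 CPM for miR-6538. The 15 together held 40.9%, 40.2% and 36.3% of the counts of the 198 higher entries in ipsilateral replicates 1 to 3. All 15 were still called without any single library. The most abundant higher entry, miR-7046-3p, was chosen after its values were seen: it had 1743, 1663 and 1224 CPM in contralateral and 10173, 4885 and 1614 CPM in ipsilateral replicates, so the sides overlapped. Its log2 fold change was 1.78 ± 0.42, and its call was lost without ipsilateral replicate 1 (adjusted p = 0.0763).

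**Figure D2:**
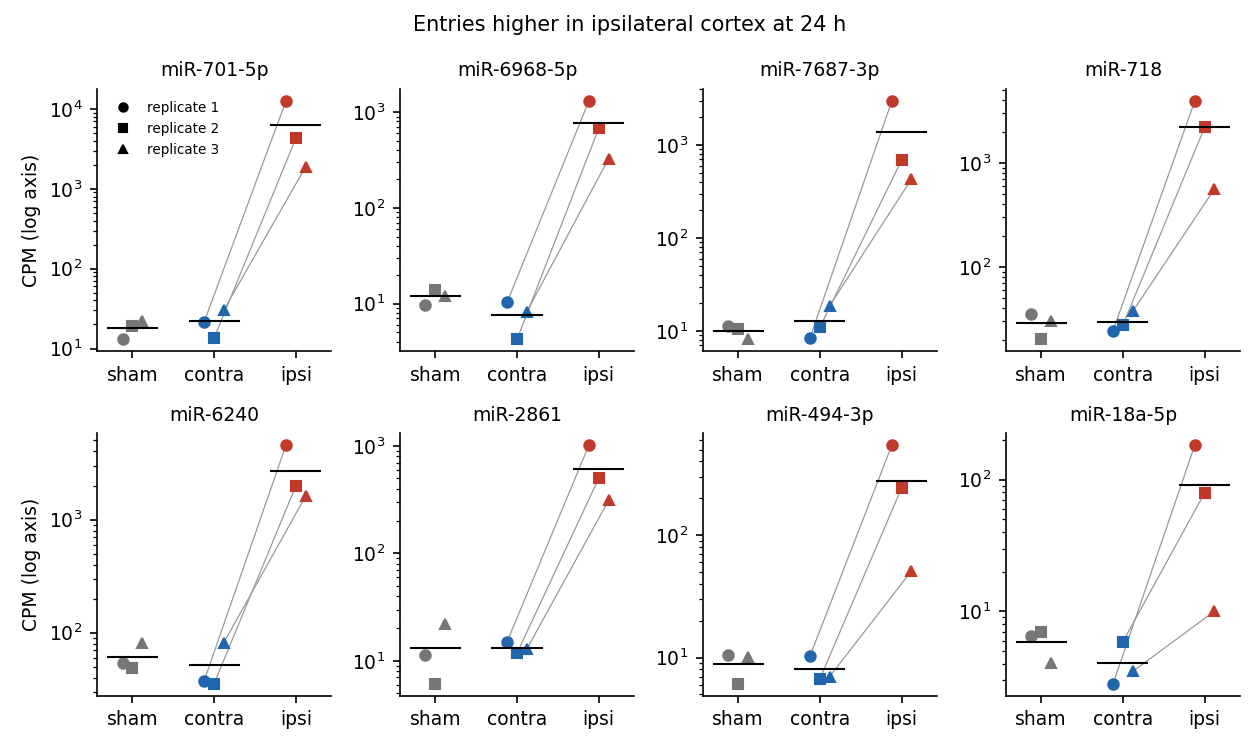
Each panel shows 1 entry that rose, with its level in CPM on a log axis in the 3 sham, 3 contralateral and 3 ipsilateral libraries of 24 h; marker shape is the replicate, grey lines join the sides of a day and black bars are means. Sham and contralateral libraries sit together and every ipsilateral library sits above them, with replicate 1 highest, for example 12613 CPM of miR-701-5p against 4285 and 1883.

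In the lists read below, 1 of 29 neuron-enriched and 0 of 16 injury and inflammation entries rose, against 13.5% of all tested entries. Outside the lists, established brain or injury miRNAs were not counted. miR-18a-5p and miR-18b-5p, from the miR-17/92 cluster and its paralog on the X chromosome that are known for promoting proliferation, made up the sole seed with at least 2 tested entries that rose in full. miR-18a-5p had 2.83, 5.89 and 3.50 CPM in contralateral and 182, 79.2 and 10.0 CPM in ipsilateral replicates, which is 3, 7 and 3 counts against 267, 114 and 13. Its log2 fold change of 4.46 ± 1.07 rested on replicate 1, without which the adjusted p was 0.0665. miR-18b-5p had 8.49, 0.842 and 9.34 CPM in contralateral and 75.2, 37.5 and 17.8 CPM in ipsilateral replicates (2.86 ± 0.64) and was called in every omission. No other member of those clusters rose: of 22 tested, 2 were higher and 1 lower, miR-92a-3p at -0.55, whose call was lost on leaving out contralateral replicate 1 or 3 or ipsilateral replicate 1 or 2 (adjusted p up to 0.228). Over all tested entries 13.5% were higher and 6.53% lower. miR-17-5p, the cluster's name-giver, had a log2 fold change of 0.23 ± 0.34 (adjusted p = 0.717).

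Entries of let-7, the family known for holding cells in the differentiated state, were among those that fell. let-7f-5p had 82343, 60531 and 60194 CPM in contralateral and 25994, 44323 and 32023 CPM in ipsilateral replicates, all 3 below every contralateral library and below the sham mean of 63779 CPM. Its log2 fold change was -1.0 ± 0.20 (edgeR adjusted p = 0.000983, the smallest among the lower entries). let-7d-5p had 7044, 5012 and 4605 CPM in contralateral and 2726, 2576 and 3395 CPM in ipsilateral replicates, again with no overlap (-0.92 ± 0.20). let-7f-5p and let-7d-5p, with miR-328-3p, were the 3 that stayed lower under every alternative and omission.

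Of 20 let-7 entries tested, 10 fell and none rose, with a median of -0.66 (-0.17 under total counts). Over all tested entries 6.53% fell, and 28.8% of those with a mean of at least 100 CPM. The list was not compared at like levels. Of the 9 sequenced entries with the let-7 seed GAGGUAG, 8 fell, between -1.0 and -0.56, and the ninth, miR-98-5p, had -0.51 ± 0.20 (adjusted p = 0.0791). The calls of let-7f-5p, let-7d-5p and let-7e-5p (-0.84 ± 0.18) held without any single library. The other 7 were lost without ipsilateral replicate 1 (adjusted p of 0.0645 to 0.156). Of those 7, 6 were also lost without contralateral replicate 1 (0.0581 to 0.202), let-7d-3p without contralateral replicate 2 (0.0704), and let-7b-5p and let-7c-5p without ipsilateral replicate 2 (up to 0.0572). Without the surgery-day block 7 of the 10 were called. The summed let-7 level, scaled by library totals, was 107800 to 159000 CPM in contralateral and 95850 to 110100 CPM in ipsilateral libraries, so the ranges overlapped.

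The miR-30 family, known for targeting cytoskeletal and autophagy genes, fell in 7 of 11 tested entries with a median of -0.71 (-0.21 under total counts). Here too, 6.53% of all tested entries fell, and 28.8% of those with a mean of at least 100 CPM. miR-30e-5p had 9425, 12421 and 8182 CPM in contralateral and 3728, 6432 and 6225 CPM in ipsilateral replicates, without overlap (-0.91 ± 0.20, edgeR adjusted p = 0.00155). miR-30a-5p had 30119, 33733 and 23382 CPM against 13888, 21411 and 17103 CPM (-0.76 ± 0.17). The 4 of the 7 that held without any single library were miR-30a-5p, miR-30e-5p, miR-30d-5p (-0.71) and miR-30d-3p (-0.91). miR-30c-5p, miR-30c-2-3p and miR-30e-3p were lost without ipsilateral replicate 1 (adjusted p of 0.0561 to 0.144), and the last 2 also without contralateral replicate 1 (0.0832 and 0.189). Without the block 1 of the 7 was called, miR-30c-5p, and the adjusted p of miR-30e-5p became 0.0606.

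All 4 entries with the miR-181 seed ACAUUCA fell, by nearly the same amount, -0.74 to -0.70. Over all tested entries 6.53% fell, and 28.8% of those with a mean of at least 100 CPM. miR-181a-5p, the most abundant entry in these libraries and a miRNA known for acting on chaperones and apoptosis regulators in ischemia, had 136287, 100936 and 103053 CPM in contralateral and 58365, 73908 and 75576 CPM in ipsilateral replicates. The sides did not overlap, and the sham mean was 94478 CPM (-0.72 ± 0.19, edgeR adjusted p = 0.00669). All 6 lower calls of the family were lost without contralateral replicate 1 (adjusted p of 0.0555 to 0.140) or ipsilateral replicate 1 (0.0627 to 0.191), and 2 of them without ipsilateral replicate 2 (0.0621 and 0.0639). Without the block 3 of the 6 were called: miR-181a-5p, miR-181b-5p and miR-181c-5p.

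miR-328-3p had 3402, 4352 and 3125 CPM in contralateral and 1172, 2023 and 2152 CPM in ipsilateral replicates (-1.02 ± 0.22). miR-222-3p, known for targeting cell cycle inhibitors, had 5036, 5979 and 4487 CPM against 1730, 3288 and 2832 CPM (-0.99 ± 0.23). The sides were apart for both. miR-1843a-3p, at 269, 300 and 237 CPM against 98.4, 148 and 134 CPM, fell the most (-1.07 ± 0.26). Under total counts let-7d-5p, let-7f-5p, miR-30e-5p and miR-328-3p alone passed the test as lower, with log2 values of -0.42, -0.49, -0.40 and -0.53.

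**Figure D3:**
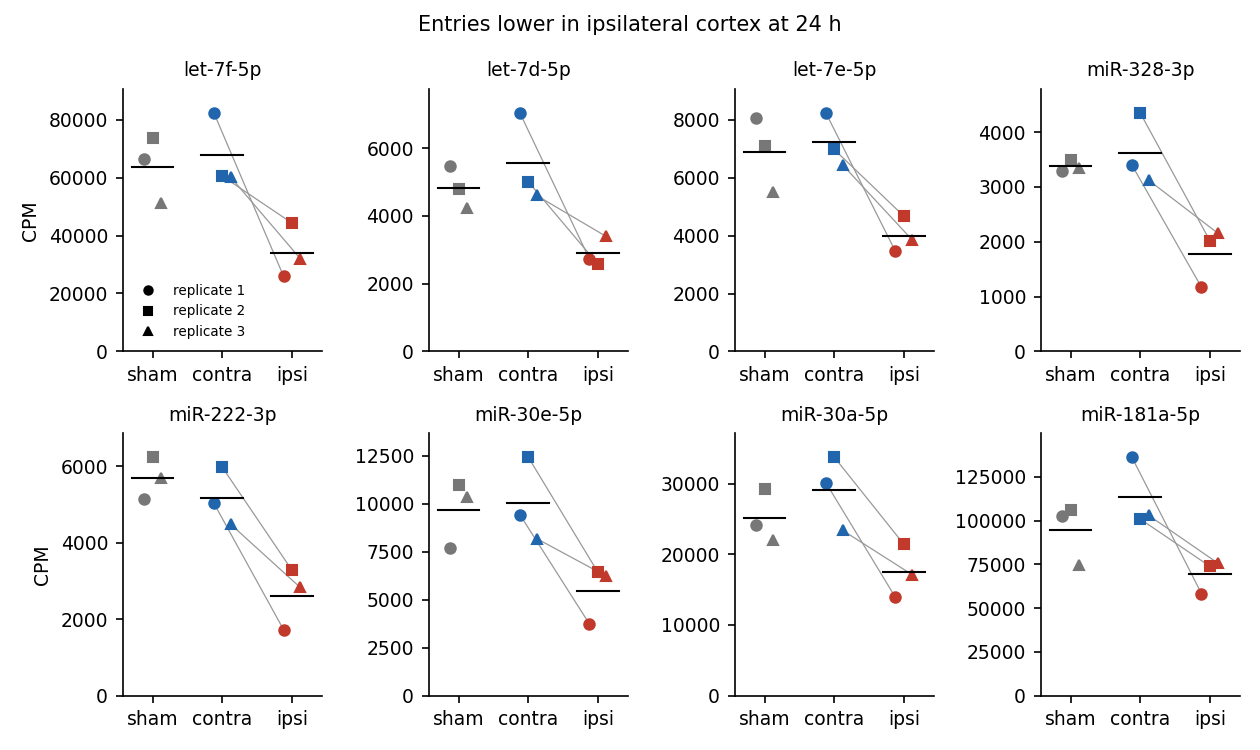
Each panel shows 1 entry that fell, with its level in CPM on a linear axis from 0 in the 3 sham, 3 contralateral and 3 ipsilateral libraries of 24 h; marker shape is the replicate, grey lines join the sides of a day and black bars are means. All ipsilateral libraries lie below all contralateral ones in every panel, and the fall is modest, for example from a mean of 67689 to 34113 CPM for let-7f-5p.

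Of the 10 most abundant entries of the 6 libraries, 8 fell and none rose: miR-181a-5p, miR-26a-5p (-0.63), miR-128-3p (-0.61), miR-22-3p (-0.49), let-7f-5p, miR-9-5p (-0.71), miR-30a-5p and miR-27b-3p (-0.56). Among all entries with a mean of at least 100 CPM, 28.8% fell and 18.2% rose. Of the 10, miR-127-3p and miR-434-3p did not pass (-0.36 and -0.53). These 10 took 56.4%, 57.6% and 57.6% of contralateral and 46.8%, 55.4% and 54.3% of ipsilateral counts, so ipsilateral replicate 1 stood lowest. Under total counts let-7f-5p alone of the 8 was still called, and miR-22-3p was at zero.

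Of 29 neuron-enriched miRNAs tested, 5 fell (17.2%, against 6.53% of all tested entries) and 1 rose (3.45%, against 13.5%), with a median of -0.43 that became 0.06 under total counts. Of all entries with a mean of at least 100 CPM, 28.8% fell and 18.2% rose, and the list was not compared at like levels. miR-124-3p, the main neuronal miRNA, had 4092, 7261 and 6729 CPM in contralateral and 3203, 4296 and 6039 CPM in ipsilateral replicates, lower on each day but overlapping between sides (-0.40 ± 0.19, adjusted p = 0.138). The 5 that fell were miR-9-5p (-0.71), miR-9-3p (-0.78), miR-128-3p (-0.61), miR-128-1-5p (-0.71) and miR-218-5p (-0.58). None of the 5 was called without the block or without contralateral replicate 1 (adjusted p of 0.0526 to 0.154), and 4 each were lost without ipsilateral replicate 1 (up to 0.134) or 2 (up to 0.100). Without contralateral replicate 2, miR-128-3p and miR-218-5p were lost (up to 0.0634), and without ipsilateral replicate 3, miR-128-3p (0.0905). miR-129-2-3p rose by 1.55 ± 0.49, with 253, 598 and 345 CPM in contralateral and 1603, 1001 and 538 CPM in ipsilateral replicates, and was lost without ipsilateral replicate 1 (0.312), contralateral replicate 1 (0.143) or contralateral replicate 3 (0.0950). Its partner arm miR-129-5p had -0.26 ± 0.17.

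In the activity-regulated cluster of miR-132 and miR-212 3 of 4 entries fell. Over all tested entries 6.53% fell, and 28.8% of those with a mean of at least 100 CPM. miR-132-5p, the lesser arm, had 1173, 1306 and 1142 CPM in contralateral and 478, 642 and 992 CPM in ipsilateral replicates (-0.83 ± 0.20), while the main arm miR-132-3p had 7694, 7459 and 7799 CPM against 5269, 6129 and 6983 CPM and did not pass (-0.34 ± 0.18, adjusted p = 0.182). miR-212-3p (-0.59) and miR-212-5p (-0.64) were lost without either library of day 1 or ipsilateral replicate 2 (adjusted p of 0.0754 to 0.202). None of the 3 was called without the block (miR-132-5p at 0.0642).

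miRNAs commonly linked to injury and inflammation mostly did not pass. Of 16 tested, 2 fell (miR-132-5p, which is also in the cluster just described, and miR-22-3p) and none rose. Over all tested entries 6.53% fell and 13.5% rose. miR-22-3p was lost without contralateral replicate 1 (adjusted p = 0.203) or 2 (0.0615) and without ipsilateral replicate 1 (0.107) or 2 (0.193). miR-21a-5p, which is induced in many injured tissues, had 2041, 1708 and 1433 CPM in contralateral and 2862, 2526 and 1351 CPM in ipsilateral replicates, higher on days 1 and 2 and not on day 3 (0.35 ± 0.21, adjusted p = 0.246). Under total counts its log2 value was 0.86. miR-155-5p, a macrophage miRNA, had 0.63 ± 0.36 (adjusted p = 0.232) at a mean of 10.9 CPM, and miR-146a-5p, a brake on innate signaling, had -0.20 ± 0.30. The hypoxia miRNA miR-210-3p had 60.4, 80.8 and 51.4 CPM in contralateral and 37.6, 53.5 and 43.3 CPM in ipsilateral replicates (-0.51 ± 0.27, adjusted p = 0.192; -0.02 under total counts).

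Markers of other cell types that a piece of cortex can hold mostly overlapped between sides. The 8 tested entries of the leukocyte and microglia list had no call and a median of -0.13 (0.35 under total counts), and the summed level of its 6 defining markers, scaled by library totals, was 1337 to 1746 CPM in contralateral and 1479 to 1963 CPM in ipsilateral libraries. The neutrophil and monocyte marker miR-223-3p stood at a mean of 11.8 CPM (-0.42 ± 0.38, adjusted p = 0.494). Summed markers also overlapped between sides for neurons, oligodendrocytes, endothelium, erythrocytes, choroid plexus, meninges and liver. Single markers among these fell: miR-338-3p of oligodendrocytes (-0.71), miR-126a-3p of endothelium (-0.66) and miR-144-3p of erythrocytes (-0.78). Each was lost without contralateral replicate 1 or ipsilateral replicate 2, miR-338-3p and miR-126a-3p also without ipsilateral replicate 1, miR-338-3p and miR-144-3p without contralateral replicate 3, and miR-144-3p without contralateral replicate 2 or ipsilateral replicate 3 (adjusted p up to 0.241). miR-126b-3p of the vascular list rose (3.08 ± 0.73) and was lost without contralateral replicate 1 (0.0532). Summed markers did not overlap for epithelium, at 411 to 449 CPM in contralateral and 669.3 to 1375 CPM in ipsilateral libraries, none of whose 8 markers passed. The full epithelial list summed to 556.4 to 25250 CPM in sham and 820.5 to 1725 CPM in ipsilateral libraries, so sham reached above every ipsilateral library. Another member of the epithelial list, miR-183-3p, rose from 2.83, 2.53 and 9.34 CPM to 171, 61.8 and 10.0 CPM (4.04 ± 0.99, lost without ipsilateral replicate 1 at 0.0697 or contralateral replicate 1 at 0.0599). Muscle markers did not overlap either, at 151 to 196 CPM against 118 to 149 CPM, where miR-133a-3p fell (-0.87, lost without either library of day 1, adjusted p up to 0.144). No marker that the table lists was at 0 over these 6 libraries, and the part these cells have in the results was not tested.

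Several abundant families had entries that fell. Among the miR-29, miR-99/100/125, miR-26, miR-15/16 and miR-23/27/24 lists, 10 of 42 tested entries fell (23.8%, against 6.53% of all tested) and 1 rose, miR-29b-2-5p (1.51), which was lost without ipsilateral replicate 1 (adjusted p = 0.0668). Of all entries with a mean of at least 100 CPM, 28.8% fell, and the lists were not compared at like levels. The medians of the 5 lists, -0.49 to -0.38, became 0.01 to 0.12 under total counts. Each of those 10 was lost in at least 1 omission (adjusted p up to 0.261 for miR-26a-5p without contralateral replicate 1). The miRNAs of the imprinted Dlk1-Dio3 region are expressed from the maternal chromosome in brain. Its Mirg cluster had 7 lower and 4 higher of 68. The Rtl1-antisense group had 3 lower of 11, and the Meg3 and Rian group 4 higher and 1 lower of 17. Together the 3 groups had 11 lower and 8 higher of 96 tested, against 6.53% lower and 13.5% higher of all tested entries. miR-494-3p, in the Mirg cluster, had 10.4, 6.73 and 7.01 CPM in contralateral and 543, 243 and 51.0 CPM in ipsilateral replicates (5.04 ± 0.80), and miR-3072-5p of the same cluster 4.72, 10.9 and 8.18 CPM against 625, 177 and 83.5 CPM (4.95 ± 0.73). miR-341-5p, in Rian, had 24.5, 27.8 and 17.5 CPM against 971, 435 and 262 CPM (4.56 ± 0.84), while its more abundant partner miR-341-3p had -0.41 ± 0.25. For these 3 entries the sides were apart and the calls held without any single library. All 11 lower calls of the 3 groups, and 4 of their 8 higher ones, were lost in at least 1 omission, with the highest adjusted p at 0.761 for miR-410-5p without ipsilateral replicate 1. In the Sfmbt2 cluster, 10 of 49 entries passed the filter on low counts and 3 of them rose. An entry can pass that filter through its ipsilateral libraries alone, so the share that rose can be partly given by the filter. The rise was led by miR-467d-5p with 19.8, 21.9 and 26.9 CPM against 877, 307 and 200.1 CPM (4.30 ± 0.66). miR-467c-5p had 4, 4 and 1 counts in contralateral and 49, 11 and 12 in ipsilateral replicates. miR-669a-3-3p had 3, 3 and 1 against 38, 10 and 12. Both calls were lost without ipsilateral replicate 1 (0.312 and 0.121) or contralateral replicate 1.

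**Figure D4:**
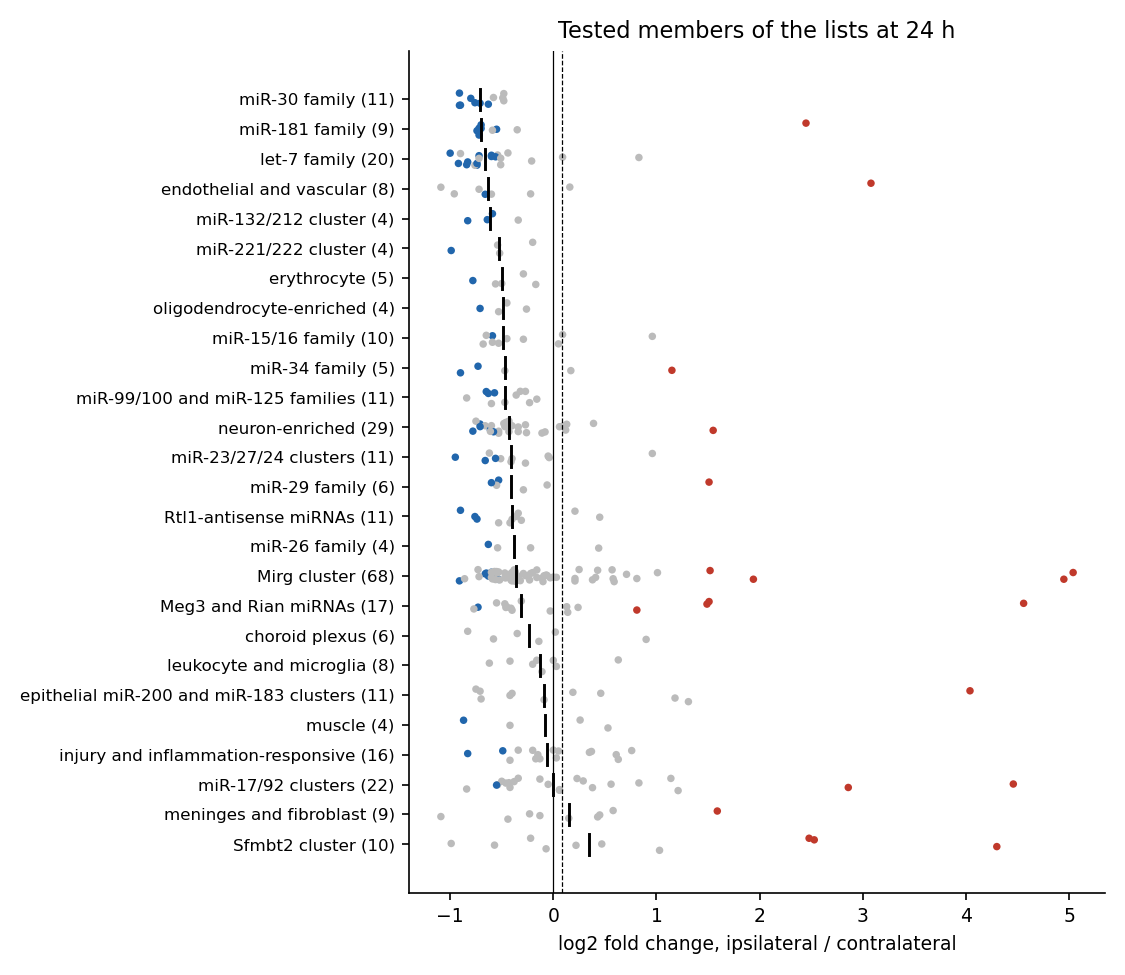
Each row is a list with at least 4 tested members (number in brackets) and each point a member's log2 fold change, ipsilateral over contralateral, red where called higher and blue where called lower; black bars are list medians and the dashed line is the median of all tested entries, 0.08. The let-7, miR-30 and miR-181 rows lie left with medians of -0.66, -0.71 and -0.70, and the largest positive points are single members such as miR-494-3p at 5.04.

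The 2 arms of a hairpin were seldom both called. The difference between arms was not tested. A call on 1 arm alone can go with like values, as for let-7e-5p (-0.84) and let-7e-3p (-0.76). It can also go with unlike ones, as for miR-341-5p (4.56) and miR-341-3p (-0.41). Both arms were tested for 498 hairpins, of which 335 had no call on either arm, 140 a call on 1 arm, 8 a rise of both, 11 a fall of both and 4 calls in opposite directions. In those 4, miR-300-3p fell (-0.53 ± 0.18) from 3413, 4627 and 2799 CPM to 2223, 2750 and 2471 CPM while its rare partner miR-300-5p rose (1.94 ± 0.39) from 9.43, 9.26 and 5.84 CPM to 46.5, 29.2 and 20.9 CPM. miR-34c-5p, a target of p53, fell (-0.90 ± 0.32) and miR-34c-3p rose (1.15 ± 0.33). miR-370-3p rose (0.81 ± 0.28) and miR-370-5p fell (-0.73 ± 0.23). miR-3087-5p rose (3.12 ± 0.62) and miR-3087-3p fell (-0.88 ± 0.31). The calls of miR-300-5p and miR-3087-5p held without any single library. The other 6 were lost in at least 4 of 6 omissions, with the highest adjusted p between 0.0854 for miR-34c-3p and 0.533 for miR-370-3p. In the miR-181b-1 hairpin, miR-181b-1-3p had 102, 60.6 and 54.9 CPM in contralateral and 1029, 230 and 71.1 CPM in ipsilateral replicates (2.45 ± 0.60, overlapping, and lost without ipsilateral replicate 1 with an adjusted p of 0.142), whereas miR-181b-5p fell (-0.70 ± 0.18).

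Most calls were the sole call of their seed. The 172 higher entries with a known sequence held 169 different seeds, and the 88 lower ones held 69. Of 126 seeds with at least 2 tested entries, 12 held 2 or more calls, and in each of the 12 the calls had the same direction. Besides let-7 and miR-181, 3 of 4 sequenced entries fell for GUAAACA (miR-30 and miR-384-5p), 3 of 4 for CCCUGAG (miR-125 and miR-351-5p) and 2 of 3 for AGCACCA (miR-29). Entries without a matched sequence are left out of these seed counts. The tested miR-30b-5p (-0.48, not called) and miR-30d-5p (-0.71, lower) are not among the 4 of GUAAACA.

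The entries that rose were rich in guanine. This class, the run of 4 G and the grouping by name number were chosen after values were seen. Of the 256 entries with over 40% G, 72 (28.1%) rose and 6 fell, against 35 (8.60%) and 28 of the 407 with at most 20% G. Median G content was 36.2% in the higher, 23.8% in the lower and 25.6% in the uncalled entries. The difference was there at both levels of abundance: at 100 CPM or more, 18 of 40 entries over 40% G rose (45.0%) against 27 of 223 others (12.1%), and below it 54 of 216 (25.0%) against 73 of 811 (9.0%). GGGG in the mature sequence, read on that strand as written, was found in 42 of 172 higher entries (24.4%), 4 of 88 lower entries and 140 of all 1290 (10.9%). Among the sequences shown first it is present in miR-6968-5p and miR-2861 and lacking in miR-701-5p, miR-7687-3p and miR-18a-5p, so not all entries that rose hold it. By library, entries over 40% G took 4.93%, 3.86% and 4.44% of contralateral and 8.58%, 4.98% and 5.24% of ipsilateral counts (two-sided exact permutation test p = 0.10, the smallest that 3 against 3 can give). The class was chosen with values of these libraries seen, and the test leaves out the pairing by day. Its p-value is therefore no support for the class. Sham libraries gave 5.08%, 3.55% and 4.84%, so sham replicate 1 stood above ipsilateral replicate 2.

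Late-registered entries held a larger share of higher calls than early ones, against 13.5% higher and 6.53% lower over all tested. Of 626 tested entries numbered 5000 or higher, 111 rose (17.7%) and 2 fell (0.320%). The classes from 1000 to 2000 and from 2000 to 5000 had 18% and 19.4% higher. Of 238 numbered below 200, 11 rose (4.62%) and 58 fell (24.4%). The classes also differ in level, with a median of 67.1 CPM below 200 and 12.1 CPM from 5000 on. They were not compared at like levels, and of all entries under 100 CPM 0.771% fell. Entries numbered from 1000 on took 3.47%, 3.71% and 3.70% of contralateral, 15.2%, 7.15% and 6.09% of ipsilateral and 4.21%, 3.41% and 4.91% of sham counts, without overlap (9.48% ± 4.98 against 3.63% ± 0.136, SD, n = 3; two-sided exact permutation test p = 0.10, again the smallest possible). This grouping too was chosen with values of these libraries seen, and the test leaves out the pairing, so its p-value is no support. Of entries named without an arm, 52 of 229 rose and 2 fell. By gene context, 49 of the 172 higher entries (28.5%) lay in an exon of a gene on the same strand, 88 in an intron, 13 opposite a gene and 22 in none, against 30.7% in exons among the 88 lower and 20.6% among the 1030 uncalled ones. The mature sequence occurs in a spliced transcript of another gene for 50 of the 172 higher (29.1%), 30 of the 88 lower (34.1%) and 207 of the 1030 uncalled entries (20.1%).

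**Figure D5:**
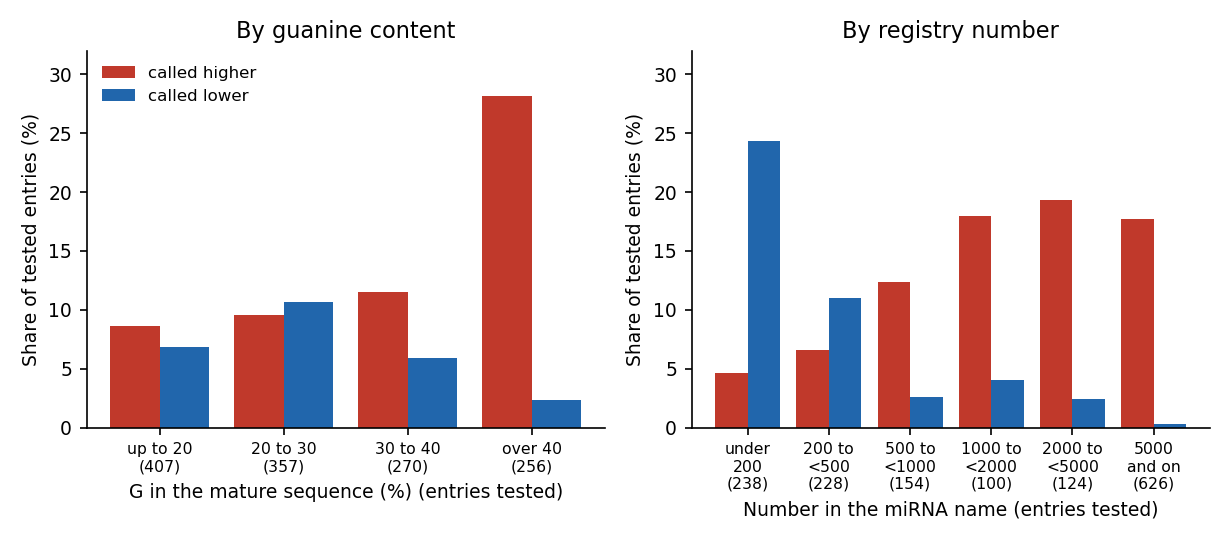
Bars give the share of tested entries called higher (red) and lower (blue) in ipsilateral cortex at 24 h, in percent, by guanine content of the mature sequence (left) and by the number in the miRNA name (right), with the number of entries tested below each class. Higher calls reach 28.1% above 40% G against 8.60% at or below 20% G, and lower calls drop from 24.4% for numbers under 200 to 0.320% from 5000 on. The median level of those 2 number classes also drops, from 67.1 to 12.1 CPM.

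The difference between sides was wider at 24 h than at 3 h for 5 of 1470 entries (0.340%), in a test of the difference itself on libraries that the 2 times do not share. All 5 were entries that rose at 24 h. For miR-701-5p the 3 h levels were 10.2, 12.9 and 19.1 CPM in contralateral and 47.6, 66.3 and 54.0 CPM in ipsilateral replicates, so a gap without overlap was already there, and the log2 difference grew by 6.24 ± 1.15 (edgeR adjusted p = 0.0483). For miR-1247-5p, from the Dio3 antisense host Dio3os, the 3 h levels were 34.8, 28.4 and 37.2 CPM against 65.0, 42.6 and 50.7 CPM, and the 24 h levels 41.5, 42.1 and 40.9 CPM against 929, 442 and 338 CPM (3.11 ± 0.67 wider). miR-3109-5p, miR-5627-3p and miR-6959-3p widened by 5.70, 4.83 and 3.10. The 5 calls lie close to the threshold (adjusted p of 0.0483 to 0.0497) and each was lost in 10 or 11 of 12 omissions.

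Against 12 h no entry differed (0 of 1470, 0%, by edgeR; 99 had an unadjusted p under 0.05, and DESeq2 also gave 0). The smallest adjusted p was 0.663. At 12 h miR-701-5p had 20.3, 9.51 and 10.9 CPM in contralateral and 651, 334 and 3659 CPM in ipsilateral replicates, so replicate 3 was the highest there and the lowest at 24 h. miR-5627-3p showed the same turn, with 89.5, 44.2 and 399 CPM in ipsilateral libraries of 12 h and 1026, 427 and 127 CPM in those of 24 h. Without ipsilateral replicate 3 of 12 h, 33 entries differed.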

How the data were processed

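Small RNA was sequenced from cortex. RNA was extracted with Trizol, small RNA libraries (TruSeq, 15 to 35 bp inserts) were read on a MiSeq in single 69 bp reads, per the labels' protocols. The authors deposited 1 table of raw counts per mature miRNA entry in 27 libraries; the submitters' processing notes name Novoalign and edgeR. Neither its genome build nor its miRNA release is named in the sources used here.

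The counts were tested with edgeR 4.0.16 (R 4.3.3): TMM factors, filterByExpr, which kept 1470 entries and left out 372, and a robust quasi-likelihood F test with group means plus the replicate number as an additive block over all 27 libraries (16 residual degrees of freedom). The filter asks for enough counts in as many libraries as a single group holds. A rare entry can thus be tested through its ipsilateral libraries alone. P-values were adjusted by Benjamini-Hochberg over the 1470 entries, with calls at an adjusted p under 0.05. P-values measure the spread between these libraries. Alternatives were no block, a block within time, total counts, TMM from entries of at least 100 CPM, RLE factors, DESeq2 1.42.0, other filters, the 6 libraries alone and omission of each library. The test was first run on simulated data.

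The series' design text states that replicate sets come from different days of surgery, so the numbers pair the libraries by day. Deviations from group means of the 24 h pairs correlated at 0.387, 0.0433 and 0.0166 on the 3 days over 283 abundant entries. Replicates of 24 h always differed by more than sampling noise (smallest chi-square per degree of freedom 24.9).

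The members and lists were chosen with earlier results of these data known. Named are the calls of highest fold change (15 per direction) and smallest adjusted p (10 per direction) at a mean of at least 10 CPM, list members, the 10 most abundant entries, their partner arms and seed relatives, the calls of the tests between times, and entries at the threshold; any other is marked as chosen after its values were seen.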

Additional observations from a re-analysis of the deposited data

Results flagged for a closer look

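The difference between ipsilateral and contralateral cortex differed between 24 h and 3 h for 5 entries by edgeR's test of the difference itself. The log2 difference was wider at 24 h by 6.24 ± 1.15 (SE) for miR-701-5p, 5.70 ± 1.16 for miR-3109-5p, 4.83 ± 0.97 for miR-5627-3p, 3.11 ± 0.67 for miR-1247-5p and 3.10 ± 0.70 for miR-6959-3p. At 24 h ipsilateral levels were 436, 193 and 89.6 CPM for miR-3109-5p and 148, 86.9 and 37.9 CPM for miR-6959-3p in replicates 1 to 3, against 16.1, 7.10 and 12.95 CPM and 22.1, 11.04 and 18.4 CPM at 3 h. Ipsilateral replicate 1 was the highest at 24 h in each of the 5. Without ipsilateral replicate 3 of 24 h the adjusted p of each was lower, down to 3.20e-05 for miR-5627-3p.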

How the results depend on the processing

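Of 1470 entries, 198 were higher and 96 lower at 24 h. No named entry with a call changed direction under any alternative run. The medians of 17 of 27 lists went from below to above 0 under total counts, among them the neuron-enriched one. With the replicate number left out as a block, 174 were higher and 21 lower. The higher count was 350 under total counts, 117 to 266 on leaving out 1 library, and 168 to 289 under the other alternatives. The lower count was 4 under total counts, 24 with TMM factors from abundant entries, 55 with no filter, 12 with the 6 libraries alone, 26 to 123 on leaving out 1 library, and 111 to 130 with RLE factors, DESeq2 and the stricter filter. The cause of these moves was not tested, save that total counts shift the median log2 value of all entries by construction of the scale, from 0.08 to 0.57, and that the 6 libraries alone leave fewer samples.

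The count of entries differing between 24 h and 3 h was 5. It was 12 without the replicate block, 42 with the block within time, 28 under total counts, 0 with TMM factors from abundant entries, 13 with RLE factors, 94 with DESeq2, 60 with the stricter filter and 0 to 153 on leaving out 1 library. It was 0 without any of 10 of the 12 libraries, 9 without contralateral replicate 3 of 3 h and 153 without ipsilateral replicate 3 of 24 h. In the main test 268 entries had an unadjusted p under 0.05. Against 12 h the count was 0 under every alternative, and 0 to 33 on leaving out 1 library, with 33 without ipsilateral replicate 3 of 12 h. The calls nearest the threshold were miR-103-3p (adjusted p = 0.0491) and miR-1191b-5p (0.0489), and the nearest entries outside it were miR-15b-5p (0.0511) and miR-7050-5p (0.0516). At 10 CPM an entry rests on about 10 reads, and 97 of the 198 higher entries had a contralateral mean below that.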
